A study of Raphanus sativus with 9 samples.

Results

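Of the 64657 radish genes listed in each library, 60 (0.0928%) were lower after 4 weeks of cold than before it, and were then higher than at the start once the plants had spent 2 weeks back in the warmth. They were chosen by their mean level, in counts per 1000000 reads counted on genes (CPM), with 0.1 CPM added to each mean. A gene was taken when its level during vernalization (V) was at most 50% of its level in non-vernalized plants (NV, the time point that the study also calls BV, before vernalization), when its level after vernalization (AV) was at least 2 times that in NV, and when the AV value reached 2. Because the choice used these means, the directions and sizes of the changes given for the 60 genes are a description of what was selected and were not tested. The count files give RSG identifiers without gene names or positions, and none of the 60 is among the glucosinolate genes that the study pairs with symbols, so that the members are described by identifier and level and no function is given to them.

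All plants were radish (*Raphanus sativus*) of the cultivar Taebaek. The study names leaf and root tissues as the source of the RNA, and the extraction label speaks of whole seedlings. How the tissues were joined in each library is not stated. NV plants were 4 weeks old and had grown in the greenhouse with no cold treatment. V plants were 8 weeks old and had spent the last 4 weeks at 4 °C under short days of sodium light, and AV plants were 10 weeks old and had been returned to the greenhouse for 2 weeks after the same cold. Plants kept warm to the ages of V and AV were not analysed here, so that cold, light and plant age cannot be told apart. Within a bulk library a lower level can come from fewer cells of a type or from less RNA per cell, and these cannot be told apart either, nor can leaf and root.

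Each group had 3 deposited libraries, with 21119531 to 27606212 reads counted on genes. Of the genes that reached 40 counts in AV replicates 2 and 3 together, 98.7% had the same count in both, a share that was at most 0.899% for the other pairs of libraries. Among the 60 members the pair differed in 2 genes, by 1 count each. The pair differed by less than the sampling noise and was counted as 1 sample, for which replicate 2 stands, so that n = 3 in NV, n = 3 in V and n = 2 in AV. At these depths 3 counts, the detection floor used here, were equal to 0.109 to 0.142 CPM, a limit that covers counting error only.

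Vernalization is the process by which a long period of cold prepares a plant to flower. In *Arabidopsis thaliana*, a relative of radish in the Brassicaceae family, the cold silences the floral repressor *FLC* through repressive histone marks, and the silenced state is kept when warmth returns. Many other transcripts follow the temperature itself and return towards their earlier level on warming, as in cold acclimation, in which protective proteins and sugars accumulate. A gene that is low in the cold and higher after it than before it follows neither of these courses.

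The 60 members covered a wide range of levels. Their mean levels ran from 0.352 to 221 CPM in NV (median 6.87), from 0.0399 to 110.3 CPM in V (median 1.78) and from 1.97 to 473 CPM in AV (median 19.1). Added together, the members took up 1158, 1235 and 1133 CPM in the NV libraries, 497, 439.5 and 490.2 CPM in the V libraries, and 3151 and 3127 CPM in the AV libraries. The sum made up 0.0440% to 0.315% of the counted reads, and the libraries of the groups did not overlap. The rule on the means sets the fall and the rise of the sum, so that this separation is a description only. In AV, 11 members had a mean of at least 100 CPM, 29 had 10 to 100 CPM, and 20 had less than 10 CPM.

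**Figure D1:**
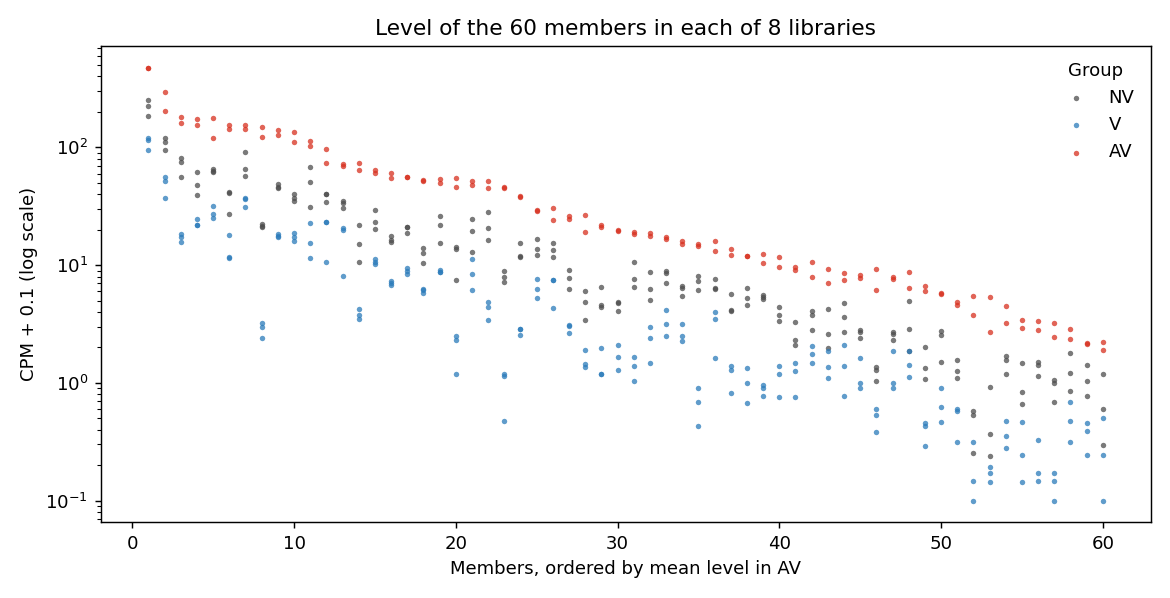
Level of each of the 60 members (x axis, ordered by mean level in AV) in the 3 NV, 3 V and 2 AV libraries, as CPM plus 0.1 on a log axis, 1 point per library. Both AV points lie above all NV points for each of the 60 members, and the V points lie below the NV points for 58 of them. The members were chosen by the means of these libraries.

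The fall in V was mostly moderate. All ratios between groups are given with 0.1 CPM added to each mean. The level in NV was 2.00 to 10.7 times that in V, with a median of 2.61, and 13 members had a V level of at most 25% of that in NV. The excess in AV over NV ran from 2.02 to 10.2 times, with a median of 2.73, and 13 members reached at least 4 times. The level in AV was 4.27 to 48.9 times that in V, with a median of 8.12, and at least 10 times in 23 members. With limits of 3 times at each step, 9 members passed both limits, 13 passed that of the fall only, 14 passed that of the excess only, and 24 passed neither. Only 4 of the 60 had both a V level of at most 25% of NV and an AV level of at least 4 times NV.

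In the edgeR fit, which used TMM normalization and all 8 libraries, all 60 members passed the filter on low counts, which a minimum level in AV favours. A gene was called where the quasi-likelihood test gave a Benjamini-Hochberg adjusted p under 0.05. In this way 58 of 60 were called lower in V than in NV, where 19.3% of the 32043 genes tested were called in that direction. Likewise 57 of 60 were called higher in AV than in NV (17.0% of all genes tested) and 60 of 60 higher in AV compared with V (14.7% of all genes tested). All 3 calls together were met by 325 genes (1.01%), of which 56 were members. Since the rule used the same contrasts, these counts describe the members only. The 3 comparisons share their libraries, and the median log2 fold changes of the members were -1.52 in V against NV, 1.37 in AV against NV and 3.06 in AV against V, beside 0.01, 0.00 and -0.02 over all genes tested.

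The libraries of V and NV did not overlap in 58 of the 60 members (23.0% of the genes tested had all V libraries below all NV libraries). In all 60, both AV libraries lay above all NV libraries (32.6% of the genes tested) and above all V libraries (32.1%). All 3 conditions held in 58 members and in 2.90% of the genes tested. The rule had used the means of the same libraries, so that these counts describe the members and are no support for the course. A stricter reading asks that each V library has at most 50% of the level of each NV library and that each AV library has at least 2 times that of each NV library, and 13 of the 60 met it. This count is given without a share over all genes tested and describes the members only.

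**Figure D2:**
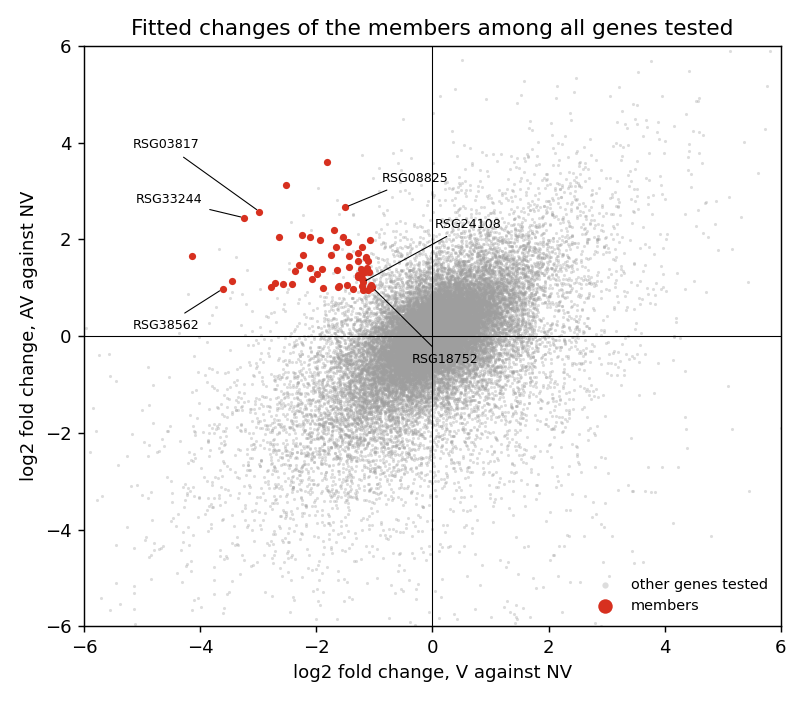
Fitted log2 fold change in V against NV (x axis) and in AV against NV (y axis) of the members (red) and of the other genes tested (grey), 1 point per gene, with 266 genes beyond the axis limits of 6 not shown. The members lie at the upper left, from about 1 log2 unit outwards, where the rule puts them, and the 6 members named in the text are labelled.

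RSG38562 and RSG33244 had the largest fitted falls in V among the members that were called in all 3 comparisons, showed no overlap between groups and reached a log2 CPM of 1 on average (50 members). RSG38562 had 7.19, 7.96 and 6.01 CPM in NV, 0.797, 0.331 and 0.585 CPM in V, and 14.9 and 14.5 CPM in AV. Its V libraries held 22, 7 and 13 counts, so that the level in the cold was low but above the floor. The fitted log2 fold change was -3.61 in V against NV (standard error 0.28) and 0.98 in AV against NV (standard error 0.24), the deep fall thus going with an excess in AV that was near the smallest the rule allows.

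RSG33244 had 7.84, 7.02 and 8.76 CPM in NV, 1.05, 0.379 and 1.08 CPM in V, and 45.5 and 45.9 CPM in AV. The AV libraries nearly coincided, and V replicate 2, with 8 counts, was the lowest of its group. In V against NV the log2 fold change was -3.24 (standard error 0.27), and in AV against NV it was 2.45 (standard error 0.23). With 0.1 CPM added to the means, its level in AV was 48.9 times that in V.

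RSG08825 and RSG03817 had the largest fitted excess in AV over NV by the same ranking. RSG03817 had 21.3, 22.05 and 20.9 CPM in NV, 2.32, 2.89 and 3.15 CPM in V, and 121 and 150.0 CPM in AV. Its NV libraries lay close together (21.4 ± 0.565 CPM, SD, n = 3). Every library of a group was far from those of the other groups, where the choice of the named genes already required no overlap. The log2 fold changes were -2.98 in V against NV (standard error 0.18) and 2.57 in AV against NV (standard error 0.17). RSG03817 and RSG33244 are both among the 4 members with a deep fall and a high excess.

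RSG08825 had 1.19, 0.9425 and 1.26 CPM in NV, 0.435, 0.284 and 0.495 CPM in V, and 9.25 and 6.03 CPM in AV. The V libraries held 12, 6 and 11 counts, and AV replicate 1 was 1.53 times as high as AV replicate 2. The log2 fold change was -1.50 in V against NV (standard error 0.37) and 2.66 in AV against NV (standard error 0.31), so that the excess outweighed the fall in this gene.

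RSG18752 and RSG24108 were the most abundant members in AV. RSG18752 had 226, 185 and 251 CPM in NV, 120, 94.8 and 116 CPM in V, and 476 and 469.6 CPM in AV. The groups did not overlap, which the choice of the named genes required. The fall was the smallest of all 60 members, with a V level of 0.50 of that in NV. The fitted log2 fold changes were -1.04 in V against NV (standard error 0.16) and 1.01 in AV against NV (standard error 0.18). RSG18752 held 15.1% and 15.0% of the summed level of the members in the 2 AV libraries. RSG24108 had 111, 119 and 94.9 CPM in NV, 55.8, 37.4 and 52.0 CPM in V, and 202.5 and 297 CPM in AV. The AV libraries of RSG24108 were further apart than those of most members, and its log2 fold changes were -1.20 in V against NV (standard error 0.18) and 1.11 in AV against NV (standard error 0.20).

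**Figure D3:**
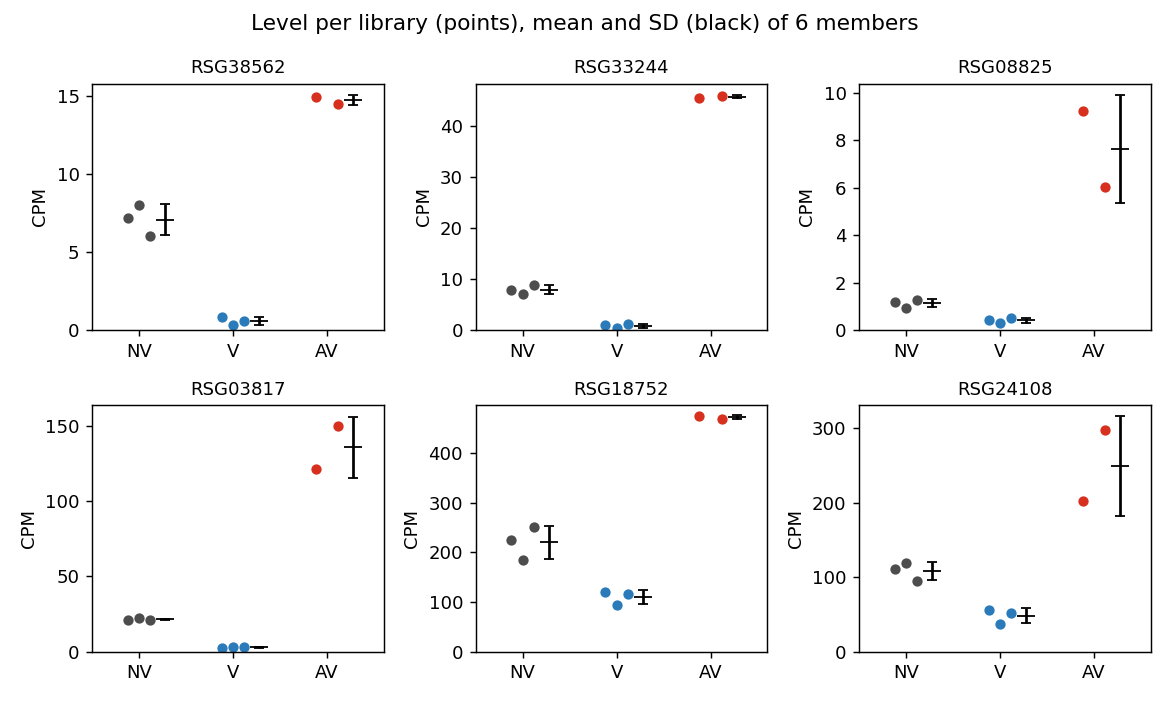
Level in CPM (y axis, from 0) of 6 members in each library of NV, V and AV (points), with the mean and SD of each group in black (n = 3, 3 and 2). In each of the 6 genes the V points lie lowest and the AV points highest, which the choice of these genes required. The ratio of AV to V means, with 0.1 CPM added, ranges from 4.28 times in RSG18752 to 48.9 times in RSG33244.

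By level, the 11 members with at least 100 CPM in AV had NV means of 21.4 to 221 CPM and V means of 2.79 to 110.3 CPM. The median of their fall was 2.25 times and that of their excess in AV was 2.40 times. The 29 members with 10 to 100 CPM in AV had NV means of 3.76 to 38.2 CPM and V means of 0.571 to 18.9 CPM, with medians of 2.71 times for the fall and 2.63 times for the excess. The 20 members under 10 CPM in AV had NV means of 0.352 to 3.59 CPM and V means of 0.0399 to 1.66 CPM, with medians of 2.6 and 3.01 times. At 46 of the 60 members every library held at least 10 counts. In 2 members all 3 V libraries held at most 3 counts, so that their level in the cold cannot be told from the floor.

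Of the 60, 4 members were not called in all 3 comparisons, and each had an average log2 CPM under 1. The first of them had 0.154, 0.471 and 0.432 CPM in NV, 0.217, 0.0474 and 0 CPM in V, and 5.37 and 3.66 CPM in AV. Its V libraries overlapped with those of NV, and its excess in AV of 10.2 times was the highest of all members. The second had 0.50, 1.08 and 0.196 CPM in NV, 0, 0.142 and 0.405 CPM in V, and 1.80 and 2.14 CPM in AV, with V and NV again overlapping. The other two, with 17 to 36 counts in each NV library and 3 to 13 in each V library, were called lower in V than in NV but not higher in AV than in NV.

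At the limits on the ratios to NV, the values ran on without a gap. The V level was 0.50 and 0.497 of that in NV in the members nearest to the limit, and 0.503 and 0.507 in the nearest genes outside it. The AV level was 2.02 and 2.03 times that in NV just inside, and 1.99 and 1.98 times just outside. At the minimum AV level, the nearest values were 2.07 and 2.17 inside, and 1.855 and 1.82 outside. Of the genes that met the remaining conditions, 2675 missed the limit on V, 1821 missed that on AV against NV, and 20 missed the minimum level.

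Because the rule used every library through the group means, it was also applied with each library left out, and the genes it then chose were looked up in that library. Without AV replicate 1, the rule chose 61 genes, and in that library 51 of them had at least 2 times the NV level (60 were above it). Without AV replicate 2 it chose 64 genes, of which 51 had at least 2 times the NV level in that library and 64 were above it. Over all genes tested, 10.6% and 12.1% were at that level in AV replicates 1 and 2. For the 3 V libraries, 44 of 69, 46 of 61 and 45 of 74 chosen genes had at most 50% of the NV level in the library left out, where 11.6%, 14.2% and 11.4% of all genes tested did. For the 3 NV libraries, 42 of 55, 39 of 64 and 35 of 61 chosen genes kept both steps, where 0.247%, 0.243% and 0.262% of all genes tested did. The limits that involve the left-out library were thus met in it by 57.4% to 83.6% of the chosen genes. For a V or AV library this covers only the step of that group. The groups that were not left out enter both the choice and the comparison. The shares over all genes tested are therefore no like background for the chosen genes. Of the 60 members, 32 were chosen whichever single library was left out, and 28 were lost without at least 1 of the 8.

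**Figure D4:**
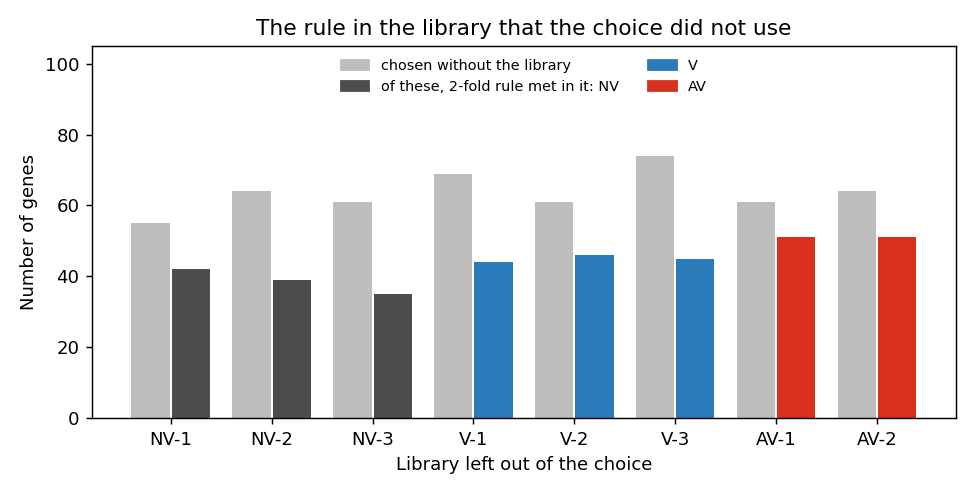
Number of genes (y axis) that the rule chose without the library on the x axis (light grey) and the number of these that met the same 2-fold limits in that library (dark grey for NV, blue for V, red for AV). The coloured bars reach 35 to 42 genes for NV, 44 to 46 for V and 51 for both AV libraries, of 55 to 74 genes chosen.

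The spread between libraries of a group was not used by the rule. Both AV libraries agreed closely in the members. The absolute log2 ratio of AV replicate 1 to replicate 2 had a median of 0.14 in the members, against 0.23 over all 32043 genes tested and 0.18 over the 13801 genes whose AV level was in the range of the middle 50% of the members. The AV libraries differed by more than 1.5 times in 2 members and by more than 2 times in none, and replicate 1 was the higher in 30 of 60 (in 36 with TMM scaling). Within NV the coefficient of variation had a median of 19.0% in the members and 19.4% over all genes tested. Within V it was wider in the members, with a median of 28.4%, against 16.1% in the 1078 genes that were low only in the cold, 15.5% over all genes tested, and 19.1% over the 11195 genes whose V level was in the range of the middle 50% of the members. The median V level was 1.78 CPM in the members, 6.56 CPM in the 1078 genes and 3.32 CPM in the 11195 genes. These sets are thus not alike in V level. The highest V library had at least 2 times the level of the lowest in 22 of 60 members, and in 14.0% of all genes tested. The wide spread went with low levels, as the median was 11.7% in the 25 members with at least 10 CPM in NV and 35.2% in the other 35 members, and the part of counting error in it was not tested. These are descriptions across genes, which are not independent replicates.

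Within a group, the order of the libraries in the members was compared with that in all genes. NV replicate 2 was the highest NV library in 25 of 60 members (40.7% of all genes tested) and NV replicate 3 the lowest in 30 of 60 (42.3% of all genes tested). NV replicate 1 was the lowest NV library in 8 of 60 (13.3%), against 24.1% of all genes tested, and the share in the members was also 13.3% with TMM scaling. V replicate 2 was the lowest V library in 27 of 60 (48.4% of all genes tested). Across the 8 libraries, the deviations of the log2 levels from the group means had a mean pairwise r of 0.00573 over the 1770 pairs of members, and of 0.000958 over all genes tested. The libraries are shared by all pairs and leave few degrees of freedom, so that r is given as a description.

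The identifiers were looked at because near numbers may mark near genes, although the files hold no positions and this cannot be checked here. No member had another member as its direct neighbour in number, and 4 members formed 2 pairs that were 2 numbers apart. In the first pair, 1 gene had 2.65, 2.45 and 1.41 CPM in NV, 0.362, 0.521 and 0.810 CPM in V, and 5.60 and 5.68 CPM in AV. The other gene of that pair had 22.02, 25.9 and 15.4 CPM in NV, 8.95, 8.67 and 8.73 CPM in V, and 53.8 and 49.9 CPM in AV. The NV level was 3.42 and 2.39 times that in V in these genes, and the AV level was 2.53 and 2.45 times that in NV. The rule itself gives every pair of members the same directions. In the second pair, 1 gene had 39.7, 34.5 and 40.2 CPM in NV, 23.1, 10.5 and 23.2 CPM in V, and 95.85 and 73.2 CPM in AV. Its partner had 15.8, 17.5 and 16.4 CPM in NV, 7.21, 6.96 and 6.70 CPM in V, and 55.25 and 60.15 CPM in AV, without the low value that V replicate 2 showed in the first. The genes numbered between the partners held 5 and 0 counts over all 8 libraries.

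The genes next to a member in number were not chosen by the rule. Of the 73 such genes that were tested and are not members, 17 were called lower in V than in NV (19.3% of all genes tested), 13 higher in AV than in NV (17.0%) and 15 above V in AV (14.7%). Only 1 of the 73 was called in all 3 comparisons (1.01% of all genes tested). These shares were near those of all genes.

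Glucosinolates (GSLs) are sulfur compounds that Brassicaceae plants keep as defence and that myrosinases break down when tissue is wounded. The list of GSLs genes in the supplement holds 94 distinct identifiers, of which 2 carry the same symbol, *RsTGG2a*. None of the 94 was a member, where the members are 0.0928% of all genes listed. In V, 19 of them had at most 50% of the NV level, and in AV 11 had at least 2 times the NV level, and no gene did both. No share over all genes is given for these fold limits, so that the counts are no result about the pathway. Of the 87 GSLs genes tested, 28 were called lower in V than in NV (19.3% of all genes tested), 12 higher in AV than in NV (17.0%) and 11 higher in AV than in V (14.7%). None of the 87 met all 3 calls by edgeR or by DESeq2 at an adjusted p under 0.05 (0 each). At an unadjusted p under 0.05 in edgeR, 1 gene, *RsAOP1*, did. No share over all genes tested is given at the unadjusted threshold, so that the count of 1 is no result about the pathway. As 1.01% of all genes tested met the 3 calls, a count of 0 in a list of this length is near the background and is no result about the pathway.

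Of the 87, 4 had a mean below NV in V and above NV in AV. The share over all genes tested is not given for this condition, so that the count is no result about the pathway. *RsAOP1* is a homolog of a 2-oxoglutarate-dependent dioxygenase gene of *A. thaliana*. It had 2.61, 2.78 and 4.09 CPM in NV, 2.46, 2.08 and 1.98 CPM in V, and 5.33 and 7.0 CPM in AV. The log2 fold change of *RsAOP1* in V against NV, -0.57, did not pass the threshold (adjusted p = 0.103, edgeR's quasi-likelihood test), whereas that of 0.87 in AV against NV did (adjusted p = 0.0223). *RsMYB51a* and *RsMYB51b*, homologs of a regulator of indolic GSLs genes, were higher in AV than in NV (log2 fold changes 1.22 and 1.85 in edgeR, adjusted p = 0.00248 and 3.75e-06) and had log2 fold changes of -0.26 and -0.05 in V against NV that did not pass. *RsCYP81F2c*, a homolog of a cytochrome P450 gene of indolic GSLs modification, had at most 1.11 CPM in any library, with log2 fold changes of -1.58 in V against NV and 0.68 in AV against NV, neither of which passed (edgeR, adjusted p = 0.108 and 0.468).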

How the data were processed

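The deposited values are read counts per gene that the authors obtained with HTSeq-count, without normalization. Before that, the stranded mRNA reads were inspected in FastQC, cut and filtered with fastx-trimmer and mapped by Tophat2, with the Nodai assembly as genome. Tool versions and strand mode are not given in the sources used here. By default, the counter skips reads with more than 1 alignment, which can lower the counts of near-identical genes. Its summary lines were left out. Library totals on genes were 21119531 to 27606212.

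CPM values are counts divided by the library's total on genes, times 1000000. The rule was computed in Python 3.11.15 with pandas 2.3.3. In edgeR 4.0.16 (R 4.3.3), counts were filtered by filterByExpr (32043 genes kept), normalized by TMM and fitted for 8 libraries by glmQLFit with robust estimation. The standard error is the log2 fold change divided by the square root of F. The scripts were tested on simulated data. Replicates were those of the labels. Whether each came from separate plants is stated by the study only as biological replicates.

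The members and lists were chosen with earlier results of these data known. Named genes are members called in all 3 comparisons, without overlap between groups and with a mean log2 CPM of 1 or more: the 2 with the largest fall in V, the 2 with the largest rise in AV over NV, and the 2 with the highest AV mean. Any GSLs gene among the members was to be named too, and the paper's GSLs list was counted. Other members are given without identifiers, because the files and RefSeq do not pair RSG identifiers with symbols (0 matches).

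Alternatives were other scalings, filters, constants, folds and minimum levels, DESeq2 1.42.0, other uses of AV replicate 3, a replicate block, and each library left out.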

Additional observations from a re-analysis of the deposited data

How the results depend on the processing

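The number of members depended most on the fold of the rule. A fold of 1.5 at both steps gave 329 genes and a fold of 3 gave 9. A constant of 1 CPM in place of 0.1 gave 30 genes, all of them members, since a larger constant shrinks the ratios of low genes. With CPM scaled by TMM the rule gave 54 genes, of which 52 were among the 60, and with DESeq2 size factors 53, of which 51 were. Between TMM and library totals, the median log2 difference over all genes tested moved by -0.03 in V against NV, by -0.08 in AV against NV and by -0.05 in AV against V. Leaving out single libraries gave 55 to 74 genes.

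With each NV or V library left out, 56 to 59 members were called lower in V than in NV. Between 54 and 58 were called higher in AV than in NV, and all 60 higher in AV than in V. All 3 calls were met by 53 to 56. Of the 31767 to 31907 genes tested, 4774 to 6360 were called lower in V than in NV. Called higher in AV were 4094 to 5790 against NV and 3432 to 5448 against V. Without an AV library, 1 library is left in AV and is taken to vary like the other groups. Calls from these fits are not counted. DESeq2 called 57 members in all 3 comparisons, and edgeR called 51 when an absolute log2 fold change of 1 or more was also asked for. No share over all genes tested is given for all 3 calls in these settings. Since the rule used the same contrasts, these counts describe the members only. The 6 named genes kept their direction and call in all 3 comparisons with DESeq2 size factors, the DESeq2 test, the mean of AV replicates 2 and 3, the replicate block and each NV or V library left out. Without either AV library they kept their direction. With the minimum absolute log2 fold change of 1, RSG38562 lost its call in AV against NV (0.98), and the other named genes kept theirs.

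In the fit with a replicate block for the numbers, 58 members were called lower in V than in NV (6471 of 32043 genes tested). The same fit called 57 members higher in AV than in NV (5677 of all genes tested) and 60 higher in AV than in V (4766). All 3 calls were met by 56 members, and no share over all genes tested is given for them in this fit. The count describes the members only. Deviations of same-numbered NV and V libraries had r of 0.05, 0.23 and 0.11 across genes. In differently numbered NV and V libraries r ran from -0.19 to 0.15, the highest being NV replicate 3 with V replicate 1. Same-numbered NV and AV libraries had r of -0.16 and -0.04. These values do not settle whether the numbers pair the samples, and the numbers were not taken to pair them.

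For low members depth is the limit: 14 of the 60 had under 10 counts in at least 1 library, and small changes are not detectable there.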

Other observations

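At the same limits, 60 genes followed the course of the members, against 234 genes with the opposite course, which had a V level of at least 2 times that in NV (and of at least 2) and an AV level of at most 50% of that in NV. The absolute log2 ratio between AV replicates 1 and 2 had a median of 0.14 in the members, against 0.46 in these 234 genes. The AV levels of the 234 are low by their selection, and the part of counting error in this gap was not tested.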
